A study of Homo sapiens with 4 samples.

Results

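The lamins, the high mobility group (HMG) proteins and the chromatin regulators described here are 9 genes out of the 57820 features that each ribosome profiling table lists. They were chosen as a fixed list of Ensembl numbers, named in order LMNB1, LMNA, HMGB1, HMGB2, HMGA1, HMGA2, H2AFZ, CBX5 and EZH2, and all 9 were found. The list was drawn up with earlier results of these data known. The cells were BJ-Ras-ER, hTERT-expressing human BJ fibroblasts that carry a 4-hydroxytamoxifen (4-OHT)-inducible oncogenic H-Ras. 4 libraries were analysed, 1 per condition: proliferating cells with DMSO, proliferating cells with 10 µM GC7, cells in oncogene-induced senescence (OIS, 100 nM 4-OHT for 12 days) with DMSO, and OIS cells with 10 µM GC7. GC7 inhibits the hypusination of eIF5A, the modification that this elongation factor needs to relieve stalled ribosomes, and the study's legend gives 18 h of treatment. All 4 conditions share the hTERT and Ras-ER transgenes, and since 4-OHT is what brings about OIS here, the state and the exposure to 4-OHT cannot be told apart. For 2 of the libraries the treatment entry contradicts the title, and the titles, which the alignment names in the table headers match, were followed.

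Senescent nuclei are known for a remodelled lamina and chromatin. Lamin B1 and the A-type lamins form the meshwork under the inner nuclear membrane, and a low level of lamin B1 is a widely used mark of senescence. The HMGB proteins bend DNA and are also released from cells as alarm signals, whereas the HMGA proteins bind the minor groove of AT-rich DNA through AT-hooks and are structural components of senescence-associated heterochromatin foci. CBX5 (HP1α) binds methylated lysine 9 of histone H3, EZH2 is the enzyme of Polycomb repressive complex 2 that methylates lysine 27, and H2AFZ encodes the histone variant H2A.Z.

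Ribosome footprints are the mRNA pieces that ribosomes shield from nuclease, so a count depends on mRNA level and on ribosome occupancy together, and in bulk samples fewer cells that express a gene and less RNA per cell cannot be told apart. The libraries held 3039026 to 6553835 counts. The share of counts on the mitochondrial genome lay between 0.0281% (proliferating GC7) and 12.2% (OIS DMSO), so mitochondrial features were kept out of the scaling. A sum of 40 or more counts was asked of a nuclear feature, which left 11128 for testing, all 9 genes among them. Log2 ratios were taken after TMM scaling with a prior count of 1, and each has a 95% exact counting interval. A gene was called if its ratio reached 2-fold and the interval left out equal levels. With 1 library per condition no ratio has a replicate check, and the intervals cover counting error only. Marker genes of fibroblasts, of other cell types and of proliferation could not be checked, because the tables give Ensembl numbers without names and the reference gene table paired none of the 57820 with a symbol. The names of the 9 genes come from the list itself. On hg19 each lies on the chromosome of the RefSeq gene of that name (H2AZ1, the current symbol, for H2AFZ), and for LMNB1 and HMGA1 the span in bases is the same in both annotations.

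Between OIS and proliferating cells, the 9 genes fell into 3 groups that were the same with DMSO and with GC7. LMNB1, HMGB1, HMGB2, CBX5 and EZH2 were called lower in OIS cells, HMGA1 and HMGA2 were called higher, and LMNA and H2AFZ were not called. With DMSO, 5 of the 9 were thus lower and 2 higher, where 12.6% of all tested features were called lower and 14.1% higher. With GC7 the counts were again 5 and 2, against 11.5% and 12% of all features. The median log2 ratio of the 9 was -1.27 with DMSO and -1.10 with GC7, and that of all features -0.02 and -0.01. The DMSO and the GC7 comparison share no library. Because the list was drawn up with earlier results of these data known, the shares over all features are a description only.

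The main test over all 4 libraries took treatment as an additive term, which leaves 1 residual degree of freedom. That degree of freedom holds the difference of the GC7 ratio between the states, so the model treats this difference as error. In edgeR's quasi-likelihood test with Benjamini-Hochberg adjustment over all 11128 features, the same 5 genes fell in OIS cells and the same 2 rose, while 14.5% of all features were called lower and 18% higher. The adjusted p-values of the 7 called genes ranged from 5.55e-06 for HMGA2 to 0.00263 for EZH2. This test borrows its estimate of spread from all features, and p-values from single libraries per condition do not measure the spread between replicate cultures.

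**Figure D1:**
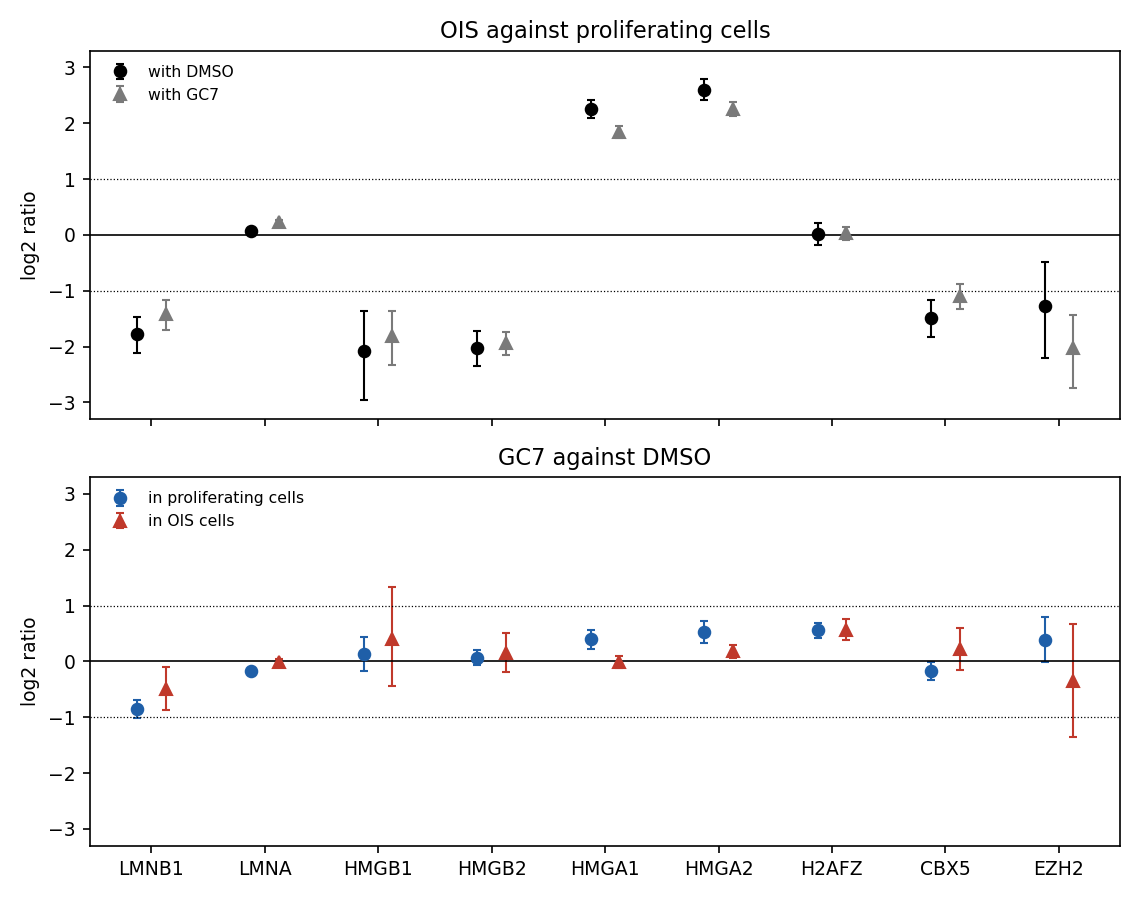
Log2 ratios of TMM-scaled footprint counts for the 9 genes, above for OIS against proliferating cells with DMSO (circles) and with GC7 (triangles), below for GC7 against DMSO in proliferating (circles) and OIS cells (triangles). Bars are 95% exact counting intervals and dotted lines mark 2-fold; between the states 5 genes lie below the lower line with either treatment and HMGA1 and HMGA2 above the upper one, while no gene passes 2-fold with GC7.

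LMNB1 (ENSG00000113368, chr5:126112315-126172712 on hg19, + strand) encodes lamin B1. It had 680 counts in the DMSO and 600 in the GC7 library of proliferating cells, against 96 and 141 in those of OIS cells. Both OIS libraries were therefore below both proliferating libraries, although the proliferating DMSO library held fewer counts in total than the OIS GC7 library. After scaling, LMNB1 was 3.43-fold lower in OIS cells with DMSO (log2 ratio -1.78, interval -2.11 to -1.47) and 2.68-fold lower with GC7 (-1.42, interval -1.71 to -1.16). Over all 4 libraries it fell by 1.60 on the log2 scale (edgeR adjusted p = 9e-05). Of all features, 316 of 11128 had a lower ratio than LMNB1 with both treatments.

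LMNA (ENSG00000160789, chr1:156052364-156109880, + strand) encodes lamins A and C. Its counts were 7646 in the DMSO and 10726 in the GC7 library of proliferating cells, against 3901 and 7987 in those of OIS cells, the highest of the 9 genes in every library. The log2 ratio of OIS to proliferating cells was 0.07 with DMSO (interval 0.01 to 0.13) and 0.23 with GC7 (0.19 to 0.28), but -0.32 and 0.01 with scaling by the nuclear total (the sum of the tested features), where the medians of all features were -0.40 and -0.24, and -0.05 with DMSO under upper quartile scaling. The additive model gave 0.15 (edgeR adjusted p = 0.658), or -0.15 with the nuclear total.

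Since LMNB1 and LMNA were counted in the same libraries, their ratio needs no scaling between libraries. There were 11.2 LMNA counts per LMNB1 count with DMSO and 17.9 with GC7 in proliferating cells, against 40.6 and 56.6 in OIS cells. The LMNB1 to LMNA ratio was 3.61-fold lower in OIS cells with DMSO (log2 change -1.85, exact interval -2.18 to -1.54) and 3.17-fold lower with GC7 (-1.66, interval -1.94 to -1.39). The lamina genes thus moved apart between the states by more than counting error with either treatment. This pair, too, was chosen after the counts were seen.

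HMGB2 (ENSG00000164104, chr4:174252846-174256276, - strand) and HMGB1 (ENSG00000189403, chr13:31032884-31191734, - strand) encode the abundant HMG-box proteins. HMGB2 had 812 counts in the DMSO and 1352 in the GC7 library of proliferating cells, against 97 and 224 in those of OIS cells. It was 4.05-fold lower in OIS cells with DMSO (log2 ratio -2.02, interval -2.34 to -1.72) and 3.81-fold lower with GC7 (-1.93, interval -2.15 to -1.73). Over all 4 libraries HMGB2 fell by 1.98 on the log2 scale (edgeR adjusted p = 1.72e-05), the lowest log2 fold change of the 9 genes, and 187 of the 11128 features had a lower ratio with both treatments.

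HMGB1 had 142 counts in the DMSO and 248 in the GC7 library of proliferating cells, against 16 and 44 in those of OIS cells. The log2 ratio was -2.08 with DMSO, with a wide interval of -2.95 to -1.36 from 16 counts in the OIS library, and -1.81 with GC7 (interval -2.33 to -1.37). In the additive model HMGB1 fell by 1.94 on the log2 scale (edgeR adjusted p = 0.000184). Against each other the HMGB genes kept similar proportions, and HMGB2 had 5.72 counts per HMGB1 count with DMSO and 5.45 with GC7 in proliferating cells, against 6.06 and 5.09 in OIS cells. The log2 change of that ratio between the states was 0.08 with DMSO (interval -0.74 to 0.99) and -0.10 with GC7 (interval -0.62 to 0.44). At this depth changes from -0.74 to 0.99 with DMSO thus lay within counting error of the estimate. HMGB1 has many processed pseudogene copies, and the counting command sets no option for reads that align to several places, which featureCounts leaves out by default, so its counts are uncertain.

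HMGA1 (ENSG00000137309, chr6:34204650-34214008, + strand) and HMGA2 (ENSG00000149948, chr12:66217911-66360075, + strand), the AT-hook proteins, went the other way. HMGA1 had 437 counts in the DMSO and 912 in the GC7 library of proliferating cells, against 1013 and 2078 in those of OIS cells. The OIS DMSO library, the smallest of the 4, held more HMGA1 counts than either proliferating library. HMGA1 was 4.76-fold higher in OIS cells with DMSO (log2 ratio 2.25, interval 2.09 to 2.42) and 3.59-fold higher with GC7 (1.85, interval 1.73 to 1.96), and in the additive model it rose by 2.05 on the log2 scale (edgeR adjusted p = 2.07e-05).

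HMGA2 had 304 counts in the DMSO and 695 in the GC7 library of proliferating cells, against 897 and 2102 in those of OIS cells. It showed the highest state ratio of the 9 genes, 6.05-fold with DMSO (log2 ratio 2.60, interval 2.41 to 2.79) and 4.77-fold with GC7 (2.25, interval 2.13 to 2.38). The additive model gave a rise of 2.42 (edgeR adjusted p = 5.55e-06), and 145 of the 11128 features had a higher ratio with both treatments. Within libraries HMGA2 was slightly higher against HMGA1 in OIS cells, with 0.885 counts per HMGA1 count against 0.696 in proliferating cells with DMSO (log2 change 0.35, interval 0.10 to 0.60) and 1.01 against 0.762 with GC7 (0.41, interval 0.24 to 0.58). A feature on the other strand shares 2.59% of the exonic bases of HMGA2, and it held at most 3 counts in a library.

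The ratio of HMGB2 to HMGA1 counts differed widely between the states. HMGB2 was called lower and HMGA1 higher, so this change follows from their own ratios. It is no separate result, and the pair was chosen after the counts were seen. HMGB2 had 1.86 counts per HMGA1 count in proliferating DMSO and 1.48 in proliferating GC7, but in OIS cells it had 0.0958 with DMSO and 0.108 with GC7. The HMGB2 to HMGA1 ratio was 19.4-fold lower in OIS cells with DMSO (log2 change -4.28, interval -4.64 to -3.93) and 13.8-fold lower with GC7 (-3.78, interval -4.02 to -3.54). These are ratios of counts, not adjusted for the length of the genes, so only their change between libraries is compared.

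**Figure D2:**
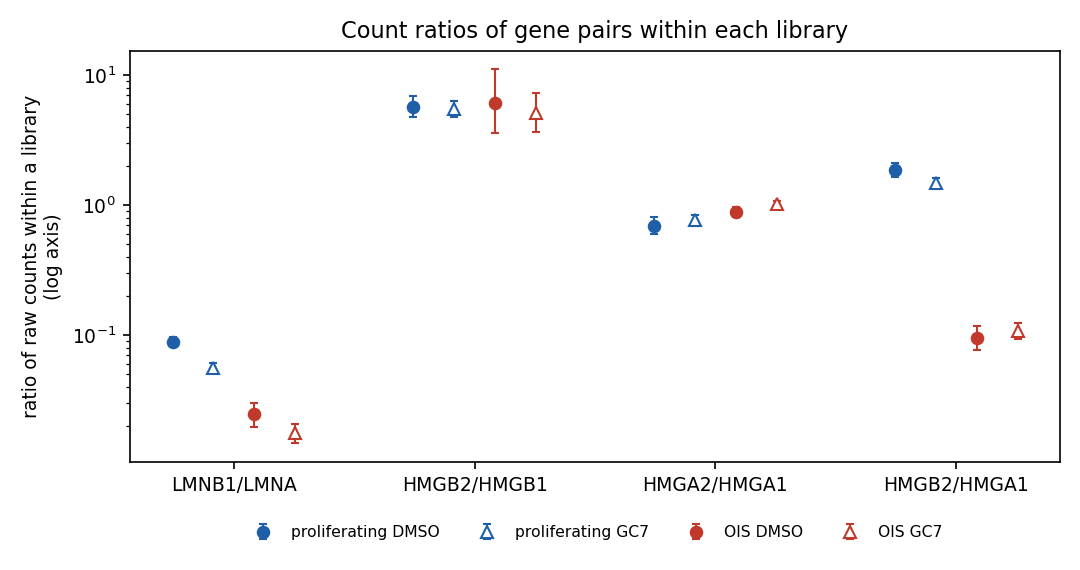
Ratio of raw counts of 2 genes within each library (log axis). Filled circles are DMSO and open triangles GC7 libraries, in blue where cells proliferated and red where they were in OIS; bars are 95% exact binomial intervals. HMGB2 to HMGA1 stands at 1.86 and 1.48 in proliferating and at 0.0958 and 0.108 in OIS libraries, while HMGB2 to HMGB1 lies between 5.09 and 6.06 in all 4. The pairs were chosen after the counts were seen.

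Among the chromatin regulators, CBX5 (ENSG00000094916, chr12:54624724-54673886, - strand) had 502 counts in the DMSO and 708 in the GC7 library of proliferating cells, against 87 and 209 in those of OIS cells. It was 2.80-fold lower in OIS cells with DMSO (log2 ratio -1.48, interval -1.83 to -1.16) and 2.14-fold lower with GC7 (-1.10, interval -1.33 to -0.88). Over all 4 libraries CBX5 fell by 1.28 on the log2 scale (edgeR adjusted p = 0.000453). With GC7 its ratio lay just past the 2-fold limit, and the interval included smaller differences. A feature on the same strand shares 0.64% of the exonic bases of CBX5 and had 0 counts.

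EZH2 (ENSG00000106462, chr7:148504475-148581413, - strand) had the fewest counts of the 9 genes over the 4 libraries, with 76 in the DMSO and 158 in the GC7 library of proliferating cells, against 15 and 24 in those of OIS cells. The log2 ratio was -1.27 with DMSO (interval -2.21 to -0.49) and -2.02 with GC7 (interval -2.74 to -1.43). The intervals overlap. In the additive model EZH2 fell by 1.73 on the log2 scale (edgeR adjusted p = 0.00263).

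H2AFZ (ENSG00000164032, chr4:100869243-100871545, - strand) had 662 counts in the DMSO and 1545 in the GC7 library of proliferating cells, against 327 and 1002 in those of OIS cells. Its scaled levels were higher in both GC7 libraries than in both DMSO libraries. The log2 ratio of OIS to proliferating cells was 0.02 with DMSO (interval -0.17 to 0.22) and 0.03 with GC7 (interval -0.08 to 0.15). With the nuclear total it was -0.36 and -0.19, where the medians of all features were -0.40 and -0.24. The additive model gave 0.03 (edgeR adjusted p = 0.921), or -0.28 with the nuclear total. H2AFZ also has processed pseudogene copies, and copies of the other genes, HMGA1 among them, could not be checked. A feature on the other strand, with 0 counts in all 4 libraries, shares 9.68% of the exonic bases of H2AFZ. By default featureCounts assigns reads in shared bases to neither feature. Low counts of such features thus do not show that H2AFZ, CBX5 and HMGA2 lost no reads there.

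**Figure D3:**
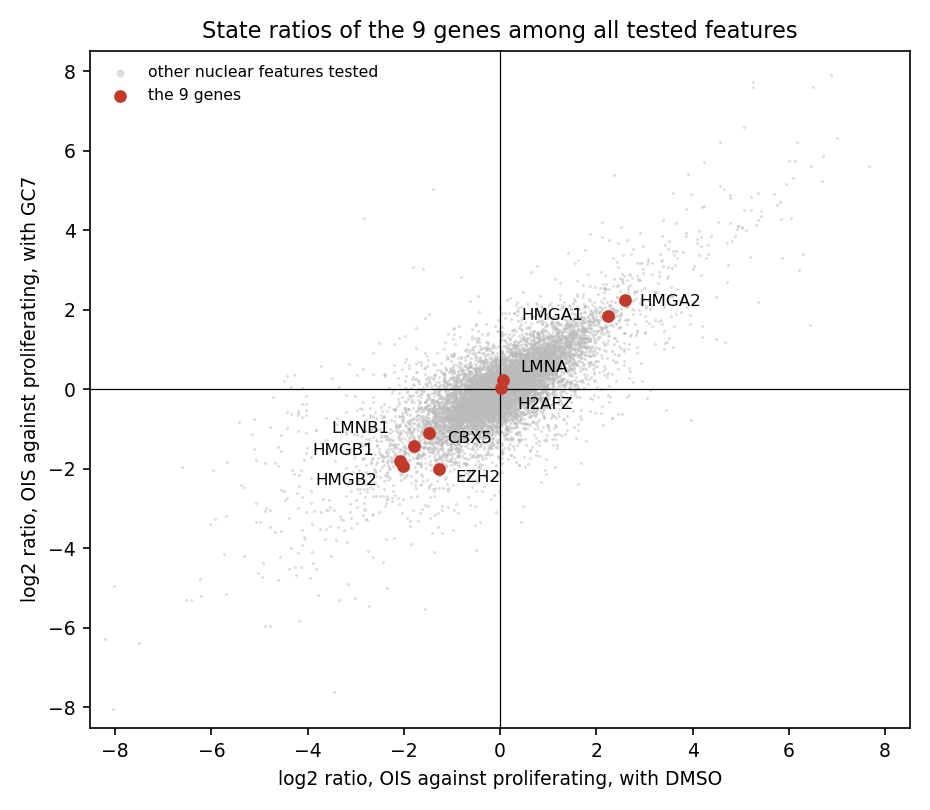
Log2 ratio of OIS to proliferating cells with DMSO (horizontal axis) and with GC7 (vertical axis) for the 11128 nuclear features tested (grey) and the 9 genes (red). LMNB1, HMGB1, HMGB2, CBX5 and EZH2 lie at -1.10 or below on both axes, HMGA1 and HMGA2 at 1.85 or above, and LMNA and H2AFZ near the origin.

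None of the 9 genes passed the 2-fold limit with GC7. The mitochondrial share of counts was 2.89% with DMSO and 0.0281% with GC7 in proliferating cells and 12.2% and 0.141% in OIS cells, and its part in these ratios was not tested. In proliferating cells 0 of the 9 were called, where 2.06% of all features were called lower and 3.42% higher. In OIS cells 0 of the 9 were called as well, against 2.79% lower and 3.57% higher among all features. In the additive model edgeR called 0 of the 9 for treatment (smallest adjusted p = 0.283), where 0.243% of all features were called lower and 0.144% higher. At an unadjusted p under 0.05 there were 2, LMNB1 and H2AFZ, where 1075 of the 11128 features had one. DESeq2's Wald test called 0 of the 9 after adjustment, and 29 features lower and 11 higher.

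LMNB1 had the lowest GC7 ratio of the 9 genes in both states, at 81.98 TMM-scaled CPM (counts relative to library size) with GC7 against 147 with DMSO in proliferating cells and 30.4 against 42.8 in OIS cells. The log2 ratios were -0.85 (interval -1.01 to -0.69) and -0.49 (interval -0.88 to -0.10), both with intervals below 0. In OIS cells the interval included 0 with the nuclear total (-0.31, interval -0.69 to 0.08) and with total count over all features, mitochondrial ones included (-0.12, interval -0.51 to 0.27). The medians of all features in OIS cells were then 0.19 and 0.38. With TMM scaling 403 of the 11128 features had a lower ratio in proliferating cells, and 1661 had one in OIS cells. Over all 4 libraries the log2 fold change for GC7 was -0.69, which did not pass the adjustment (edgeR adjusted p = 0.283, unadjusted p = 0.00459). LMNA had log2 ratios of -0.18 (interval -0.22 to -0.14) in proliferating and -0.01 (interval -0.07 to 0.04) in OIS cells. With the nuclear total its OIS ratio was 0.17, where the median of all features was 0.19. The LMNB1 to LMNA count ratio was accordingly 1.59-fold lower with GC7 in proliferating cells (log2 change -0.67, interval -0.84 to -0.50) and 1.39-fold lower in OIS cells (-0.48, interval -0.87 to -0.09).

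H2AFZ had the highest GC7 ratio of the 9 in both states, with 144 TMM-scaled CPM in DMSO and 211 in GC7 for proliferating cells, and 146 and 216 for OIS cells. The log2 ratios were 0.56 (interval 0.42 to 0.69) and 0.57 (interval 0.39 to 0.75), or 1.47-fold and 1.48-fold, and both intervals lay above 0. With total count over all features the OIS ratio was 0.94, where the median of all features was 0.38. The additive model gave 0.56, which did not pass either (edgeR adjusted p = 0.357, unadjusted p = 0.0117).

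The HMGA genes had intervals above 0 in proliferating cells, with a log2 ratio of 0.39 for HMGA1 (interval 0.23 to 0.56) and 0.53 for HMGA2 (0.33 to 0.73). In OIS cells HMGA1 had -0.01 (interval -0.12 to 0.10, and 0.17 with the nuclear total, where the median of all features was 0.19) and HMGA2 0.18 (0.07 to 0.29). The log2 ratio in OIS minus that in proliferating cells was -0.41 with a counting SE of 0.10 for HMGA1 and -0.34 with an SE of 0.11 for HMGA2. With the nuclear total these differences were -0.24 and -0.18, and with total count over all features -0.10 and -0.04. They were not tested, since no condition has a second library. HMGB1 had 0.14 in proliferating and 0.40 in OIS cells, HMGB2 0.07 and 0.16, and EZH2 0.39 and -0.36, with intervals that included 0 in both states under TMM scaling. With total count over all features the intervals of HMGB2 excluded 0 in both states (0.14, interval from just above 0 to 0.26, and 0.53, interval 0.18 to 0.89). The medians of all features with that scaling, 0.08 and 0.38, lay within these intervals. In proliferating cells the interval of EZH2 lay above 0 with the nuclear total, with upper quartile scaling, with total count over all features and with a minimum of 1 count (ratios of 0.41, 0.41, 0.45 and 0.46), and that of HMGB2 with the last as well (0.15, interval 0.02 to 0.27). The GC7 log2 ratio of CBX5 was -0.17 in proliferating cells (interval from -0.34 to just below 0) and 0.22 in OIS cells (-0.15 to 0.59). With the nuclear total the first interval reached 0.02 and the second began at 0.03. Over the 9 genes the difference between the states ranged from -0.74 for EZH2, with an SE of 0.52, to 0.39 for CBX5, with an SE of 0.20. LMNA had the highest difference relative to its SE, 0.16 with an SE of 0.04, opposite in sign to the HMGA genes. The median difference was 0.09 with TMM scaling, against -0.01 for all features. It was 0.25 with the nuclear total, 0.39 with total count over all features and 0.04 with a minimum of 1 count. The GC7 medians of all features moved with the scaling as well. They were 0.04 in proliferating and 0.19 in OIS cells with the nuclear total, and 0.08 and 0.38 with total count over all features.

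Levels of different genes were compared as TMM-scaled CPM per exonic kilobase. LMNA stood first in every library, between 209.8 in proliferating GC7 and 249 in OIS DMSO cells, at or above the 98.3 percentile of the tested features. In proliferating DMSO cells HMGB2 (63.4) and H2AFZ (62.3) followed, then HMGA1 (40.7) and LMNB1 (40.6), and the intervals overlapped within each of these pairs. CBX5 (8.70), HMGB1 (5.28), HMGA2 (4.45) and EZH2 (3.64) were lowest, where the intervals of HMGB1 and HMGA2 and those of HMGA2 and EZH2 overlapped.

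In OIS DMSO cells the order was LMNA, HMGA1 (194), H2AFZ (63.3), HMGA2 (27.0), HMGB2 (15.6), LMNB1 (11.8), CBX5 (3.10), EZH2 (1.48) and HMGB1 (1.22). Neighbours with overlapping intervals were HMGB2 and LMNB1, and EZH2 and HMGB1. HMGA1 stood at place 4 in proliferating and at place 2 in OIS DMSO cells, and HMGA2 at places 8 and 4. The lengths are those of all annotated exons, from 2303 bases for H2AFZ to 14808 for HMGA2. Coding lengths were not used here, so the order between genes is uncertain. The levels of HMGB1 and H2AFZ are uncertain also because reads that align to several places are left out by default. With GC7, in proliferating cells H2AFZ (91.7) stood above HMGB2 (66.6), and in OIS cells HMGB1 (1.63) and EZH2 (1.14) closed the order with overlapping intervals.

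**Figure D4:**
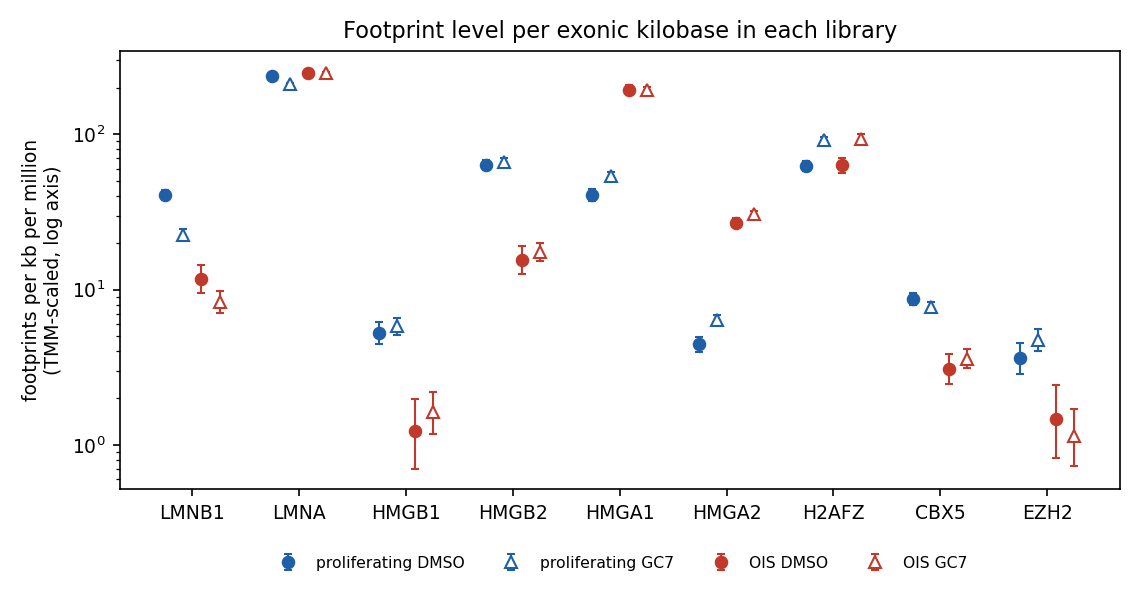
TMM-scaled CPM per exonic kilobase (log axis) of the 9 genes, with filled circles as DMSO and open triangles as GC7 libraries, in blue where cells proliferated and red where they were in OIS. Bars are 95% exact Poisson intervals. LMNA stays between 209.8 and 249, HMGA1 goes from 40.7 and 53.5 in proliferating to 194 and 193 in OIS libraries, and HMGB2 from 63.4 and 66.6 to 15.6 and 17.4.

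The 9 genes were also compared by pattern, as the distance between their centred log2 levels over the 4 libraries and those of LMNB1, among the 6326 features with at least 400 counts. The 5 nearest features, at distances of 0.17 to 0.28, were none of the 9 and have no name here. CBX5 came at rank 136 (distance 0.76), HMGB2 at rank 234 (0.88) and HMGB1 at rank 357. HMGA1 and HMGA2 were among the farthest, at ranks 6187 and 6238. EZH2, with fewer counts, was not ranked. A distance over 4 libraries is a description only.

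RefSeq promoters on GRCh38.p14, from 250 bases before to 50 after a start, were at hand for 7 of the 9 genes (not HMGB2 and HMGA2). For each gene 1 entry was used, and positions below refer to its start. That start was not compared with the ends of the gene on hg19. Motifs known from cell cycle genes were searched on both strands: the CHR element TTTGAA, the E2F words TTTCCCGC, TTTCGCGC, TTTGCCGC and TTTGGCGC, and the CCAAT box CCAAT, bound by NF-Y. CCAAT stood in 6 of the 7 promoters (LMNB1 held none), and in 34.6% of the 35116 promoters of the table. An E2F word stood in 2 of the 7, LMNA and EZH2, and in 3.31% of all. TTTGAA stood in 1, H2AFZ, and in 15.2% of all. Only these exact words were searched, so variants of them were not counted. A match is a description of the letters, and binding was not measured.

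The promoters of 3 genes that were lower in OIS cells and of 1 that was higher are printed because the motifs differ within the first group. Letters run 5′ to 3′ on the gene's strand, and capitals mark the motif matches, with ATTGG as CCAAT on the other strand.

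LMNB1 (chr5:126776373-126776672, + strand): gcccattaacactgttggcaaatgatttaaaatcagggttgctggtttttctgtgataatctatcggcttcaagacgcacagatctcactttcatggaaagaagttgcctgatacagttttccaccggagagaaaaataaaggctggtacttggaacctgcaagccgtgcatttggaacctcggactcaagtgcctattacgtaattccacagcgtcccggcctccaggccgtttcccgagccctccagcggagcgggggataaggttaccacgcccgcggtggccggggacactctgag

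HMGB1 (chr13:30465887-30466186, - strand): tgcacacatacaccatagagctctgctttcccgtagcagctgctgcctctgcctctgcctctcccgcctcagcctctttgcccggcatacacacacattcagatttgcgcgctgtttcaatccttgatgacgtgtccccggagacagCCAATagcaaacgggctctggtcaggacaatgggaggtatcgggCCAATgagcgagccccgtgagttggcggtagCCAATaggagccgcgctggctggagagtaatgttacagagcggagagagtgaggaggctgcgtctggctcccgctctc

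EZH2 (chr7:148884242-148884541, - strand): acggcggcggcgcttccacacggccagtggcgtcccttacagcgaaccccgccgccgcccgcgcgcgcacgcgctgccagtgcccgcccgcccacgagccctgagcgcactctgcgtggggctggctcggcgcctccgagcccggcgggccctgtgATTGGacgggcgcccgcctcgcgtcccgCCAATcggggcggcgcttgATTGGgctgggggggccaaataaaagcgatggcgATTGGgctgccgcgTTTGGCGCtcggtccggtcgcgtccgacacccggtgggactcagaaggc

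HMGA1 (chr6:34236623-34236922, + strand): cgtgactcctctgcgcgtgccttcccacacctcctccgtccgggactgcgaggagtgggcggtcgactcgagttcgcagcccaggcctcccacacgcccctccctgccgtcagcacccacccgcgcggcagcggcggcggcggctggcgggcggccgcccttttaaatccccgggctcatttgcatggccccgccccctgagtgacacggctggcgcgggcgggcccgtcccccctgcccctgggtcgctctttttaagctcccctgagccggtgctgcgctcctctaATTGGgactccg

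HMGB1 held 3 CCAAT boxes, the nearest 28 bases before the start, and EZH2 held 4, with an E2F word whose first base is 2 bases after the start. CCAAT stood once in CBX5, 29 bases before the start, but also 3 times in H2AFZ, whose state ratio was near 0, once in LMNA and once in HMGA1. LMNB1, lower in OIS cells like HMGB1 and EZH2, held none of the motifs in this window. CCAAT thus stood in promoters of genes that were lower, higher and not called between the states, and with 7 promoters no test was run.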

How the data were processed

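Footprint counts of 4 BJ-Ras-ER libraries were analysed, 1 per condition, grouped by their titles. Reads were aligned by the authors (hg19, STAR version 2.5.3a), who deposited whole-number counts per gene from featureCounts version 1.5.1 with GENCODE version 19. Per the file headers strand, reads with several alignments and feature overlaps were at the command's defaults. For molecular identifiers the handling was not given in the sources used here. All 4 tables held the same 57820 features, and no row was without a gene.

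Nuclear features with at least 40 counts in total (11128) were scaled by TMM in edgeR version 4.0.16 (R version 4.3.3), and log2 ratios used a prior count of 1. Intervals were 95% exact conditional binomial (Clopper-Pearson). Calls needed 2-fold and an interval without equal levels. The additive model of state and treatment was fitted with edgeR's quasi-likelihood test at an adjusted p under 0.05, and DESeq2 version 1.42.0 served as an alternative. Pair ratios within a library have exact conditional odds ratio intervals. The fits were tested on simulated data. Total counts per library were 4323662 (proliferating DMSO), 6553835 (proliferating GC7), 3039026 (OIS DMSO) and 4860980 (OIS GC7), and intervals cover counting error only.

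The members and lists were chosen with earlier results of these data known. All 9 genes were described in every comparison. Further lists by symbol (lamina, other HMG proteins, H3K9 methylation, Polycomb, histone variants and chaperones, proliferation and cell type markers, near-identical copies) have no result, since no symbol could be paired with an Ensembl number, and protein features were not analysed here. The pair ratios (6 pairs computed, 4 shown) were chosen after the counts were seen.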

Additional observations from a re-analysis of the deposited data

Results flagged for a closer look

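For 3 genes the GC7 ratio had opposite signs in the states. The log2 ratio in OIS minus that in proliferating cells was -0.41 for HMGA1 (-0.01 and 0.39), 0.39 for CBX5 (0.22 and -0.17) and -0.74 for EZH2 (-0.36 and 0.39). Each state has 1 library per treatment, and these differences were not tested. With TMM scaling the OIS intervals of all 3 genes, and the proliferating interval of EZH2, include 0. With the nuclear total, of these only the interval of EZH2 in OIS cells did so. The OIS ratio was then 0.17 for HMGA1 (interval 0.07 to 0.28), the same sign as in proliferating cells. For CBX5 the OIS ratio was 0.40 (interval 0.03 to 0.78), but its proliferating interval then included 0 (-0.15, interval -0.31 to 0.02). The proliferating ratio of EZH2 was then 0.41 (interval 0.01 to 0.83). With that scaling the medians of all features were 0.04 in proliferating and 0.19 in OIS cells. With total count over all features the OIS ratio of EZH2 was 0.000416, where the median of all features was 0.38.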

How the results depend on the processing

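Under every scaling, filter, prior count and fold limit tried, the genes called between the states stayed at 2 higher and 5 lower with DMSO and with GC7, except that EZH2, with too few counts, left the table at a minimum of 400 counts. The tests over all 4 libraries, also without treatment as a term, called 5 lower and 2 higher in every setting with EZH2 tested. Adjusted p-values of these genes were up to 0.0215 (EZH2, DESeq2's Wald test). With DMSO the log2 ratio of LMNB1 ranged from -2.31 to -1.76, that of HMGA1 from 1.72 to 2.26 and that of HMGA2 from 2.07 to 2.61. With a 1.5-fold limit, 1 gene, LMNB1, was called lower with GC7 in proliferating cells in place of 0. No member was called for treatment in the additive model under any setting, where adjusted p-values were 0.218 or more. Scaling by the nuclear total (the tested features) moved the median of all features to -0.40 (OIS against proliferating, DMSO), and total count over all features to -0.54. Features called lower and higher between the states with DMSO were then 2533 and 958, or 3118 and 775, in place of 1405 and 1571. For GC7 in OIS cells they were 190 and 653, or 109 and 1043, in place of 310 and 397, and 94 and 71 at a minimum of 400 counts. Between the states with GC7 they were 1837 lower and 936 higher with the first and 1843 and 935 with the second, in place of 1282 and 1330. At a minimum of 400 counts features called between the states were 671 and 869 (DMSO) and 599 and 653 (GC7), and with the 1.5-fold limit 2325 and 2497, and 2329 and 2350. For GC7 in proliferating cells they were 50 and 114 at 400 counts, 353 and 632 at 1 count and 752 and 952 with the 1.5-fold limit, in place of 229 and 381, and in OIS cells 508 and 486 at 1 count and 872 and 865 with that limit. DESeq2's Wald test called 789 features lower and 1339 higher for state, and edgeR with the nuclear total 2797 and 1255, against 1609 and 2001. For treatment edgeR called 27 lower and 16 higher (25 and 30 with the nuclear total, 8 and 9 at 400 counts, 79 and 111 at 1 count, and 0 without state, where 56 had an unadjusted p under 0.05). EZH2 had 15 to 24 and HMGB1 16 to 44 counts in OIS cells, which limits the precision of their ratios. The protein alternative was not run.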
